A study of Drosophila melanogaster with 3 samples.

Results

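Dense clusters of Hairy binding were defined as runs of neighbouring peak summits. Hairy (gene symbol hry in the current annotation, h in the labels) is a transcriptional repressor of the HES family. Summits of the reproducible peak list were chained along each chromosome arm when neighbours lay at most 2000 bp apart, and chains with 5 or more summits were kept. The rule gave 150 dense chains with 898 summits, out of 6626 chains and 10233 summits in all. The members were thus chosen by the spacing of the summits, so their number, length, spacing and signal are described below without a test.

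All samples came from whole Drosophila melanogaster larvae of pooled sexes at the wandering stage of the third instar. They carried a transgenic Hairy with GFP at its C-terminal end, in the background named 15T-GFP, and sonicated chromatin was pulled down by an anti-GFP antibody and sequenced (ChIP-seq). There were 3 biological replicates of 1 group, with no second condition. Whole larvae mix all tissues, so a chain can join summits bound in different cells. Data of a control library were not analysed here, and neither read depth nor the number of hry copies in the line is given in the sources used here.

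HES proteins are basic helix-loop-helix factors that bind DNA as dimers and recruit corepressors such as Groucho. In vitro, Hairy prefers the class C site and the class B E-box, 6-base words written out below. In the embryo hairy is a pair-rule gene, and later it restrains bristle formation and takes part in eye development. Genes with large control regions often hold many binding sites for one factor, spread through introns and flanks, and clusters of sites are one form that such regions take.

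The strongest summits of a few chains are shown as 101-base windows on the plus strand of dm6, centred on the summit, because they carry the highest signal of the largest chains. Capitals mark a match to any of the 11 motifs searched, and windows all in lower case held none. In the order printed, the first 5 are the strongest summits in the longest chain at tara (chr3R:16242618-16242718), in the chains at Raf (chrX:2300659-2300759), COX7AL2 (chr2L:2202345-2202445) and vri (chr2L:5293373-5293473), and in the chain past the end of hry (chr3L:8684812-8684912). The labels of the tara windows rank summits within that chain only.
tara, strongest: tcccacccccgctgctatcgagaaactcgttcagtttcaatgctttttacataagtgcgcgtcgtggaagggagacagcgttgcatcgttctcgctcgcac
Raf: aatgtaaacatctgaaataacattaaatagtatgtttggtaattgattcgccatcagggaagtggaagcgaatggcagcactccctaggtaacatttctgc
COX7AL2: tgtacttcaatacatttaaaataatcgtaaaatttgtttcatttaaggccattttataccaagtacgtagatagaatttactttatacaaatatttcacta
vri: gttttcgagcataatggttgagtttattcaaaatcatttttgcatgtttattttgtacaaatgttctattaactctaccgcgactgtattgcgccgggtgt
downstream of hry: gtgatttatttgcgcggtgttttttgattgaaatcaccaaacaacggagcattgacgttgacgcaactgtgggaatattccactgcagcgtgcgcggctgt

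None of these 5 windows held a class B or class C site, although signal values there ran from 592 to 3137. Over all 150 chains, the strongest summit had none of the 11 motifs within 50 bp in 110 cases (73.3%), beside 67.5% of all reproducible summits. The second strongest summit in the longest chain at tara (chr3R:16236964-16237064) and a pair of neighbouring summits in the chain at Kdm2, a histone demethylase gene (chr3R:9053111-9053211 and chr3R:9053315-9053415), are shown as windows that did hold matches. The tara window has a GAGA repeat on the minus strand and the overlapping words GTGCAC and ACACTG. The first Kdm2 window has 2 class C sites, and the other has a class C site between an N-box and a CA repeat.
tara, second: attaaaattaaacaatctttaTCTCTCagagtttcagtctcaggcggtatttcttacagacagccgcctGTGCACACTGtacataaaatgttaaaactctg
Kdm2, first: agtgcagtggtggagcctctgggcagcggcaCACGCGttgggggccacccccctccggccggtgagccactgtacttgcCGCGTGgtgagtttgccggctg
Kdm2, second: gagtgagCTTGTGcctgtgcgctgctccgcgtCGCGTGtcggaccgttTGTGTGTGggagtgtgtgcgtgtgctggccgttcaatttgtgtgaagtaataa

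The longest chain lay wholly in introns of tara, a gene of the trithorax group that encodes a nuclear cofactor, and also had the most summits. Its 13 summits ran from 16229332 to 16242668 on 3R (dm6, 1-based), a span of 13336 bp. Signal values, a score given by the authors without a stated scale, ranged from 113 to 849 with a median of 157, so most summits of this chain were weak and a few stood out. The strongest, at 16242668, was 148 bp from an annotated start of tara, and ranked 367, 741 and 990 in replicates 1, 2 and 3 by signal value. The replicates had 14, 10 and 12 summits of their own in the same span, taken from each replicate's 10233 strongest peaks, called its top list and equal in length to the reproducible list. In replicate 1 the 14 formed 1 chain, and in replicate 3 a chain of 12 held 11 of them. In replicate 2 they split into runs of 3, 4 and 3 summits. Only the last belonged to a dense chain, of 5 summits, which ran on past the span.

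Counting both flanks, tara held 3 dense chains with 25 summits over 32.9 kb. A chain of 5 ended 880 bp before the gene start, over the noncoding gene lncRNA:CR45643, and a chain of 7 lay in introns further into the gene. The strongest summit of the 3 chains was in the chain of 5, with a signal of 1477 at 16222482. The chain of 7 was a dense chain again in only 1 of the 3 replicates, which gave 5, 5 and 4 summits there. In the gene and the 1 kb before it, all 21 summits of the reproducible list belonged to dense chains.

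The hry locus had another layout, with the closest dense chains outside the gene. Only 1 reproducible summit lay within 2000 bp of the hry start, and it was a chain of its own. A dense chain of 8 summits began 2222 bp past the end of the gene, at 8681475 on 3L, and ended at 8688946. Its signal values ran from 131 to 592, and the replicates had 8, 7 and 7 summits in it. A second chain, with 7 summits and a highest signal of 1080, began 20.6 kb past the gene end and ran from 8699878 to 8702953. The nearest coding TSS to it was that of SrpRbeta, at 17272 bp, and neither chain can be assigned to a gene by position alone. Both were rebuilt as dense chains in all 3 replicates, and neither covered a coding gene.

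**Figure D1:**
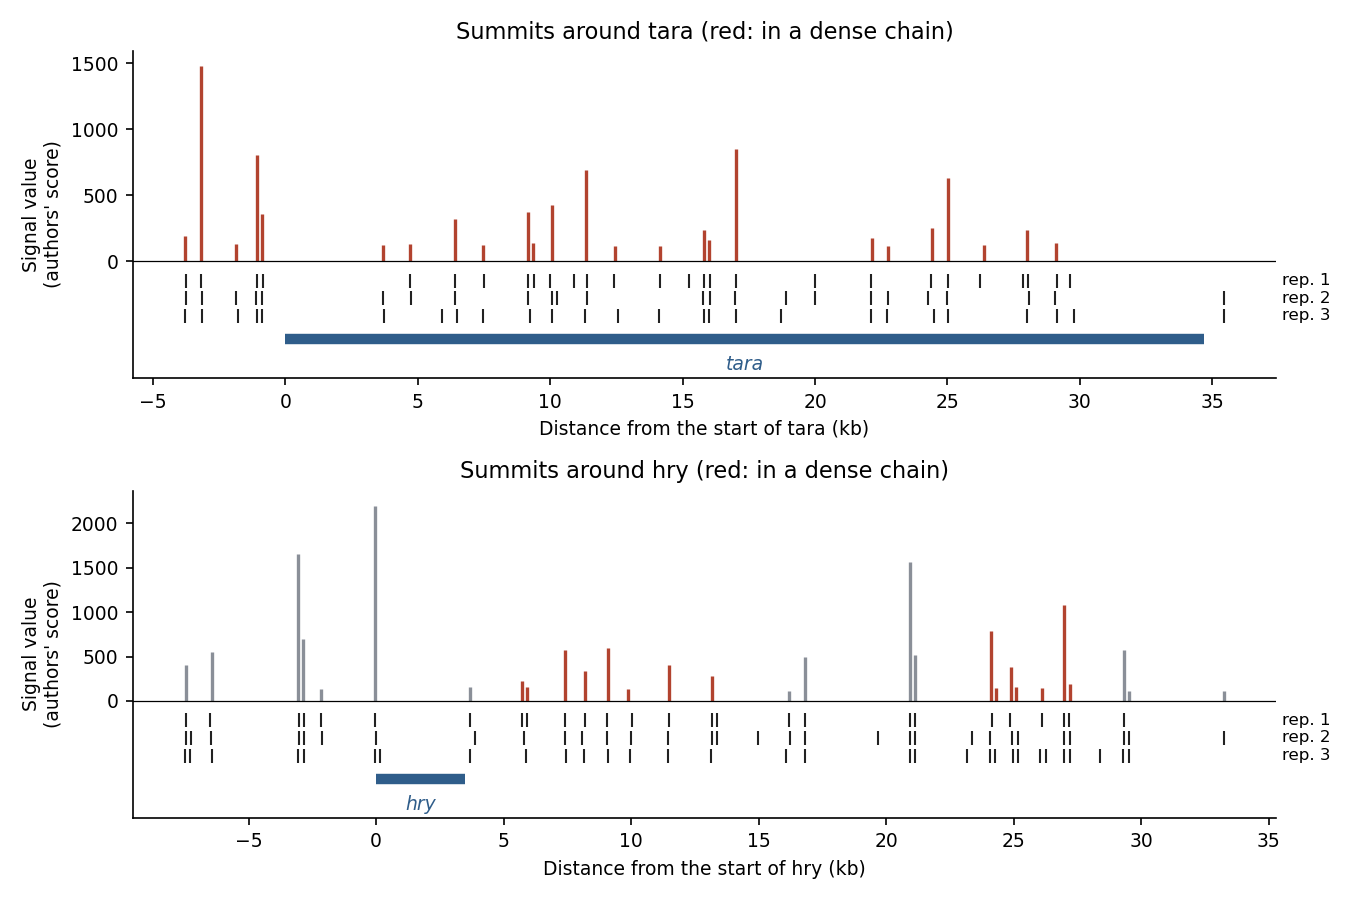
Summits around tara (top) and hry (bottom) by distance from the gene start in kb, with signal value on the vertical axis and red lines for summits in dense chains. Black ticks are the summits in each replicate's top list and the blue bar is the gene: red lines fill the introns of tara, while the tallest line at hry, at its start, is grey and the 2 red groups lie past its end.

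After tara, the chain with the most summits was at Raf, the kinase that passes the Ras signal to the MAP kinase cascade. Its 11 summits spanned 10389 bp on X, from 2293712 to 2304101. Signal values ranged from 143 to 1570 and the strongest summit lay in an intron, 5243 bp from the nearest coding transcription start site (TSS). Replicates 1, 2 and 3 had 12, 9 and 10 summits in this span, and each alone gave a dense chain there.

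The 3 chains of 10 summits differed in where their summits fell. At Pgk, which encodes a glycolytic enzyme, and its neighbour Bacc, 7 of the 10 summits lay within 500 bp of a coding TSS. The chain at COX7AL2 had no such summit, with 7 outside coding genes. It also held the second strongest summit of any dense chain, a signal of 3137 at 2202395 on 2L that ranked 28, 23 and 23 in the replicates. This summit lay outside coding genes, and the nearest coding TSS, at 3771 bp, was that of CG31668. The third, over MFS14, a gene of a transporter family, held 4 summits near a TSS and was rebuilt in 2 of the 3 replicates.

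Chains of 9 summits lay at chm, vri and spi, all on 2L. The chm chain started in introns of chm, a histone acetyltransferase gene, and ran on past mir-275 and mir-305 to within 259 bp of a start of muc. The vri chain ran from 5287729 to 5295215. Vri is a repressor with a basic leucine zipper that acts in the circadian clock. Its strongest pair of summits, with signals of 1123 and 1599 were neighbours in an intron, while the other 7 had signals of 116 to 682. At spi, which encodes the main ligand of the epidermal growth factor receptor (EGFR), 5 of the 9 summits lay within 500 bp of a coding TSS. Each of these 3 chains was a dense chain in all 3 replicates.

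The remaining chains among the 15 largest had 8 summits each. They lay at Tlk, a kinase gene, downstream of hry, at Socs36E, a feedback inhibitor of JAK/STAT signalling, at mam, the Notch coactivator gene, over Ndfip, Krn and CG7484, at Rgl, and over Irk1 and CG46310. All 8 summits of the Socs36E and mam chains were intronic with none within 500 bp of a TSS. Of these 7 chains only that at Rgl was not rebuilt in every replicate: 1 did so, with 5, 6 and 4 summits in replicates 1, 2 and 3.

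Most dense chains were short. Of the 150, 75 held 5 summits, 38 held 6, 18 held 7, 11 held 8 and 8 held 9 or more. Spans ran from 2040 to 13336 bp with a median of 4416 bp, and together they covered 708 kb, or 0.529% of the arms. Neighbours within a chain lay 199 to 2000 bp apart, with a median of 916 bp, beside 3658 bp for all neighbouring summits. By count, 2L had 26 dense chains, 2R 30, 3L 35, 3R 28 and X 31, while the small arm 4, with 25 summits, had none. The densest by summits per kb was at beat-Ib, of a family of axon guidance genes, with 7 summits in 2623 bp (2.67 per kb). It was followed by chains at CrebB with 2.63 and at Eip75B with 2.45. The beat-Ib chain was dense again in all 3 replicates, the CrebB chain in 2 and the Eip75B chain in none.

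Near the limits of the rule, the 75 chains of 5 summits had a median span of 3755 bp and a median signal of 204. The 184 chains of 4, just outside, had 2874 bp and 216. In 29 dense chains at least 1 of the links came within 100 bp of the limit of 2000 bp, and for 7 chains the nearest summit outside missed it by at most 100 bp.

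Dense summits were about as strong as the rest. Their median signal was 216 (quartiles 146 to 381), beside 201 (141 to 334) for summits in other chains. Of the 500 strongest summits, 54 (10.8%) lay in 42 dense chains, against 8.78% of all summits. Within a chain the strongest summit exceeded the weakest by a median of 4.88 times, from 1.51 to 22.7 times. It was at an end of the chain in 50 of 150 chains (33.3%), and end positions made up 34.8% of positions. The strongest summits in dense chains were at osa, a Brahma complex subunit gene (signal 3300), and in the chain at COX7AL2 but outside that gene (3137).

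Recovery in the replicates was counted for single summits and for whole chains, by criteria that differ. A summit had only to lie inside a peak of the replicate, while a chain needed a dense chain of the replicate over its span. The shares of summits and of chains are therefore not comparable. Dense summits lay inside a top-list peak for 90.4%, 87.8% and 87.2% of cases in replicates 1, 2 and 3, or 88.5% ± 1.73 (SD, n = 3). For all reproducible summits it was 87.3% ± 2.86. In all 3 top lists at once were 644 dense summits (71.7%), where the background over all summits was 70.4%. Each replicate alone gave 152, 145 and 166 dense chains, and of the 150 chains 99, 94 and 94 were rebuilt, 63.8% ± 1.92 (SD, n = 3). The reproducible list was made from the same replicates, so this recovery is not independent.

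Larger chains were rebuilt in all replicates more often. Of the chains with 5 summits, 10 of 75 were dense in all 3 replicates, of those with 6 or 7 it was 28 of 56, and of those with 8 or more 17 of 19. Overall 55 chains were rebuilt in 3 replicates, 44 in 2, 34 in 1 and 17 in none. In the reproducible list a chain of 5 falls below the limit with the loss of any summit. A replicate's dense chain can run past the span, so fewer than 5 summits inside it did not always prevent rebuilding. The Hr4 chain of 5 had 4, 3 and 4 summits in its span in replicates 1, 2 and 3, and was rebuilt in all 3. A chain counted as rebuilt where a dense chain of the replicate overlapped its span, which a longer span does more easily.

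**Figure D2:**
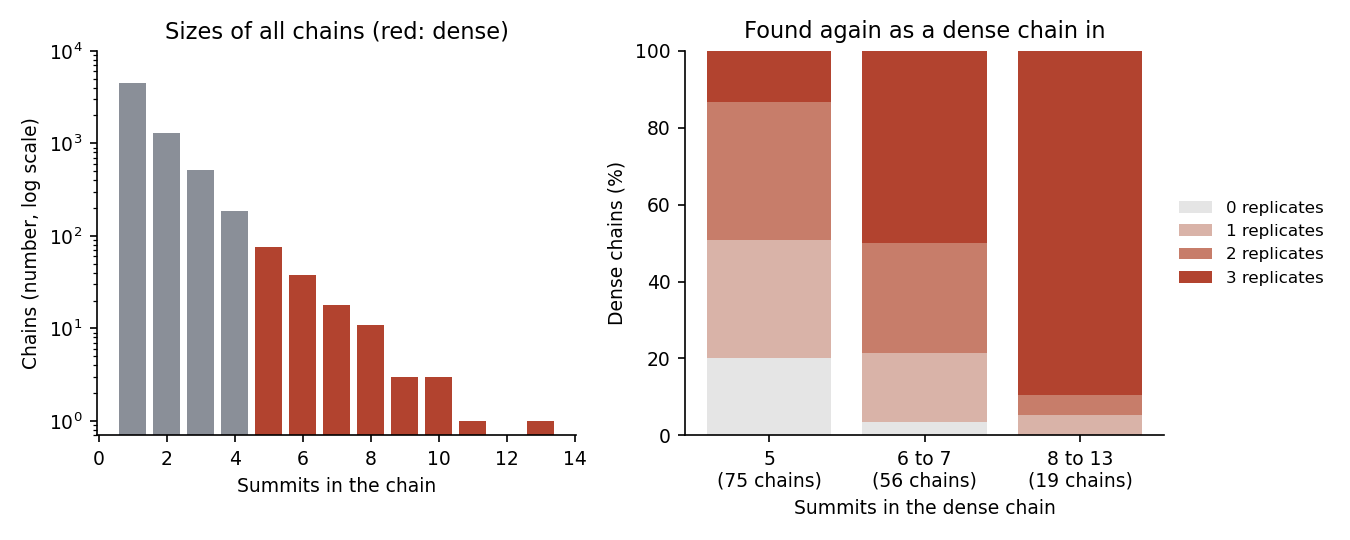
Left, number of chains (log scale) by summits per chain, with dense chains in red. Right, percentage of dense chains of 3 sizes that were dense again in 0, 1, 2 or 3 replicates: the share found in all 3 was 13.3% for 5 summits, 50% for 6 to 7 and 89.5% for 8 to 13.

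The middle summits of dense chains lay in introns more often, and near promoters less often, than those of other chains. Location was not used by the rule, and each chain was counted once, by its middle summit. Counted by whether any summit of the chain was near a TSS, the promoter direction turned, at 71.3% of dense and 47.8% of other chains. For any summit outside coding genes it turned too, at 49.3% and 43.2%, while any intronic summit was in 84.7% and 51.8%. Such counts grow with the number of summits, so they were not tested. An intron held 101 of 150 middle summits (67.3%), against 48.1% of 6476 other chains, an odds ratio of 2.22 (two-sided Fisher's exact test, adjusted p = 4.53e-06 over 3 location classes). Within 500 bp of a coding TSS were 37 (24.7%) against 41.6%, an odds ratio of 0.461 (adjusted p = 2.35e-05, same exact test). Outside coding genes were 31 (20.7%) against 39.3%, an odds ratio of 0.403 (adjusted p = 4.53e-06, same exact test). All 3 classes passed, 100% of those tested, but the classes overlap and are not independent. Neighbouring chains are not independent either, and the test covers counting error only.

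Chains built from each replicate alone gave the same directions. Their dense chains had 65.7% ± 2.96 of middle summits in introns, against 47.0% ± 0.49 in their other chains (SD, n = 3 for both). Near a TSS the shares were 24.6% ± 0.89 and 42.8% ± 0.72, and outside coding genes 24.1% ± 2.37 and 39.4% ± 0.55. In each class the dense and other values of the 3 replicates did not overlap. Among middle summits over 500 bp from any TSS, a comparison added after the data were seen, introns were still more frequent in dense chains, by 10.9 percentage points.

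**Figure D3:**
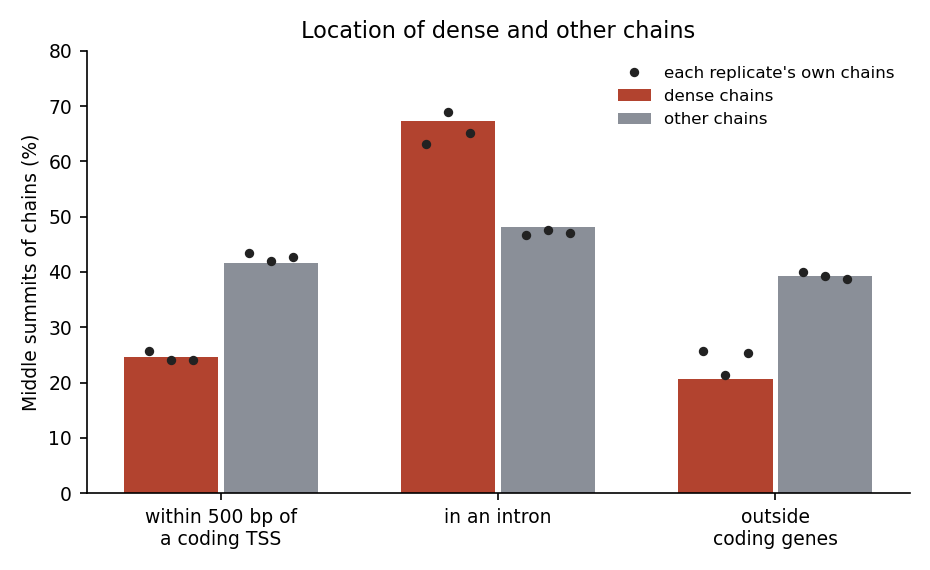
Percentage of middle summits within 500 bp of a coding TSS, in an intron or outside coding genes, for dense (red) and other (grey) chains. Bars are the reproducible list and dots each replicate's own chains: intron bars stand at 67.3% and 48.1%, promoter bars at 24.7% and 41.6%.

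Most clusters included a promoter. Of all 898 dense summits, 251 (28.0%) lay within 500 bp of a TSS, below the 39.7% of all reproducible summits. At least 1 such summit was present in 107 of 150 dense chains (71.3%), beside 41.8% of single summits, 59.8% of chains of 2, 64.2% of chains of 3 and 64.1% of chains of 4. Of the dense chains, 73 had 2 or more, and in 6 every summit was at a promoter. In the 43 others the summit closest to a TSS was a median of 2865 bp away. Every summit fell inside a single coding gene in 67 chains (44.7%), every summit was intronic in 40, and every summit lay outside coding genes in 18. Exons held few: 94 dense summits were in a 5′ untranslated region (10.5%, other summits 10.9%), 9 in a 3′ untranslated region and 5 in coding sequence. No dense summit lay in an annotated mobile element, where 19 other summits (0.204%) did, a share so low that nothing is read from it.

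None of the 11 motifs searched passed the test between dense and other chains after adjustment, in a window of 100 bp on each side of the middle summit and on both strands. With 200 bp on each side 3 of them passed: the CA repeat at 22.7% and 11.3% (adjusted p = 0.000982), the GAGA repeat at 34% and 22.3% (adjusted p = 0.00796) and the DRE at 0.667% and 5.14% (adjusted p = 0.0259, all by the same two-sided Fisher's exact test). Class C sites (CACGCG) were at 16 of 150 dense chains (10.7%) and 5.87% of other chains, with adjusted p = 0.107 (two-sided Fisher's exact test over 11 motifs). In the replicates' own chains the shares were 9.48% ± 4.24 and 5.82% ± 0.29 (SD, n = 3), and in replicate 3 the dense share was the lower one. The class B E-box (CACGTG) was at 4% and 2.07% (adjusted p = 0.246, same exact test).

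The DRE (TATCGATA), a promoter element bound by Dref, was at no middle summit of a dense chain and at 3.40% of others (adjusted p = 0.107, exact test). Replicates gave 0.45% ± 0.39 and 3.48% ± 0.25 (SD, n = 3), without overlap. The GAGA repeat (GAGAGA), a word bound by Trithorax-like, was at 18.0% and 11.8% (adjusted p = 0.107, exact test), with 19.2% ± 3.25 and 11.6% ± 0.44 in the replicates, also without overlap. Most of the 11 motifs had no overlap, so it does not set the DRE and the GAGA repeat apart. The N-box, with adjusted p = 0.833 by the same exact test, had 17.7% ± 1.65 and 20.5% ± 0.17 (SD, n = 3), also without overlap. Among middle summits over 500 bp from a TSS, the DRE was at 0 and 0.370%, and class C sites at 7.08% and 5.10%, both smaller differences, while the GAGA repeat was at 17.7% and 11.9%. Unadjusted p under 0.05 was reached by 3 of the 11, namely class C, DRE and GAGA.

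The other 7 motifs had adjusted p from 0.186 to 1 by the same exact test. The N-box (CACNAG) was at 18.7% and 20.2%, the class A E-box (CAGCTG) at 9.33% and 9.59%, and the CA repeat (CACACACA) at 7.33% and 4.82%. ACACTG was at 12% and 17.4%, GTGCAC at 11.3% and 8.28%, CAGGTA, the core of the word bound by Zelda, at 1.33% and 4.42%, and the Ohler 1 element (GGTCACAC) at 0.667% and 2.32%. GC content of the 201-bp windows was 40.1% in dense and 37.9% in other chains, and 39.5% ± 0.62 and 38.0% ± 0.20 in the replicates. Its part in the motif shares was not tested.

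**Figure D4:**
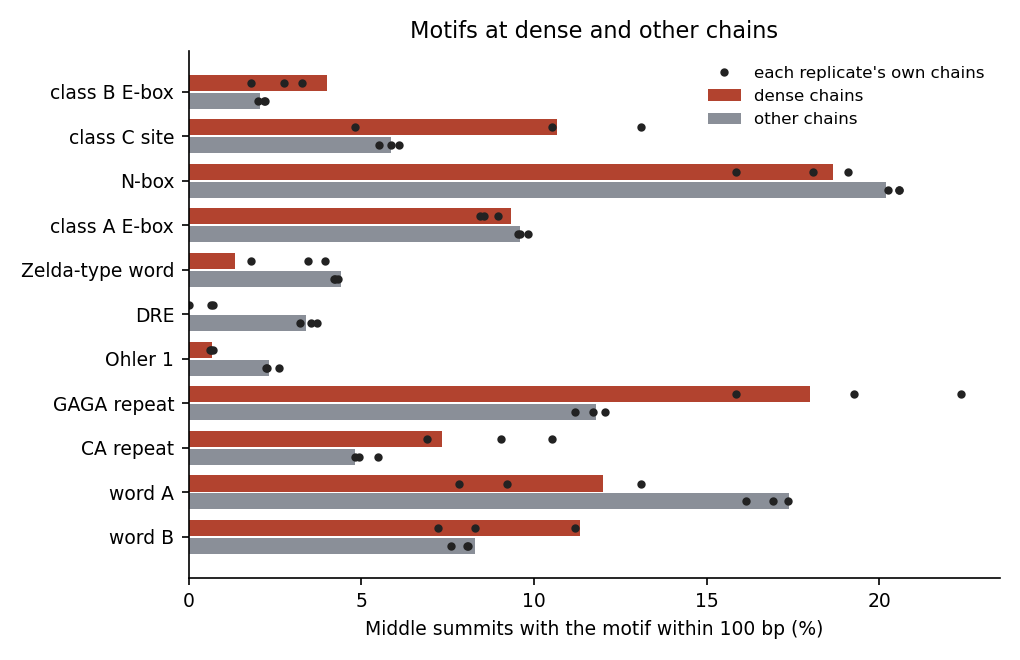
Percentage of middle summits with each of 11 motifs within 100 bp, for dense (red) and other (grey) chains, with dots for each replicate's own chains. Word A is ACACTG and word B is GTGCAC; red exceeds grey for the GAGA repeat at 18.0% and 11.8%, and falls short of it for the DRE at 0 and 3.40%.

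Motifs were also counted over all summits of each chain, and whether their number varied between clusters beyond counting error was not tested. A class C site was near 70 dense summits (7.80%, beside 6.24% of all reproducible summits), spread over 58 chains, and 12 chains had 2 such summits. GAGA repeats were near 150 dense summits (16.7%, beside 12.6% of all), in 87 chains. The MFS14 chain had 6 of them among its 10 summits, the most of any chain, and the tara chain had the most CA repeats, at 4 of 13 summits. Both are among the chains with the most summits, which have more places for a match.

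A screen of all 2080 6-base words, added after the data were seen, called 2 words, 0.0962% of those tested. CGACGA was at 14.7% of dense and 5.33% of other middle summits, and CATAGC at 14.0% and 4.94% (adjusted p = 0.0248 for both, two-sided Fisher's exact test). CATAGC was higher in the dense chains of each replicate, with 8.42% ± 1.63 against 4.84% ± 0.15 (SD, n = 3). CGACGA was not: the means were 7.49% ± 3.88 and 5.38% ± 0.21, and in replicate 2 the dense share was 3.45% against 5.16%. Both words were picked in a list made from the same replicates, so the replicate shares are not independent of that choice. With the strongest summit of each chain in place of the middle one, neither word passed (0 called, 98 with unadjusted p under 0.05, by the same test).

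Dense chains covered 168 of 13945 coding genes, 1.20% of them, where covering means that the gene body overlapped the span from first to last summit. Of the chains, 98 covered 1 coding gene, 36 covered 2 or more and 16 covered none, while 34 covered a noncoding gene. The most genes were in a chain over COX7B, Polr3G, Gorab, frc and Coq4, with 5, and this chain was dense in none of the replicates. By contrast 7 genes were covered by more than 1 chain. These were Tlk and sbb with 3 chains each, and tara, atos, shn, CG14434 and aop with 2 each.

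Covered genes were long. Their median length was 12485 bp, beside 2166 bp for all coding genes and 8212 bp for the 2688 with a summit in the body. Of genes up to 2 kb 0.337% were covered, of those from 2 to 10 kb 0.918%, of those from 10 to 50 kb 4.49%, and of those over 50 kb 6.84%. Among genes with a summit in the body the shares were 4.38%, 4.05%, 7.58% and 9.91%. A longer gene can overlap a chain more easily, so gene lists are given below with the median length of their members and no test.

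Ecdysone, the steroid hormone that times moulting and pupariation, acts through a cascade of transcription factors at the stage sampled. Of 23 genes on that list, 6 (26.1%) were covered, with a median member length of 31127 bp. Of all coding genes 1.20% were covered, of those from 10 to 50 kb 4.49%, and of those over 50 kb 6.84%. Covered members over 50 kb were EcR, Eip74EF, Eip75B and Hr4. A reproducible summit was present in 22 of the 23. Among all genes with a summit, 7.58% of those from 10 to 50 kb and 9.91% of those over 50 kb were covered. These last shares leave out genes without a summit, while the 26.1% counts all 23 members. EcR, the hormone receptor gene, had 8 dense summits all in introns. Vri, which also responds to ecdysone, had 8 in the gene and the 1 kb before it. The early gene Eip74EF had 7, and the nuclear receptor genes Eip75B and Hr4 had 5 each, of which the Eip75B chain was dense in none of the replicates. Kr-h1, a zinc-finger gene that answers juvenile hormone as well, had 5.

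The EGFR pathway had 5 of 18 members covered (27.8%), with a median length of 15038 bp, beside 1.20% of all coding genes. A reproducible summit was present in 14 of the 18, and of all genes from 10 to 50 kb with a summit 7.58% were covered. The ligand genes spi and Krn had 9 and 4 dense summits, the kinase gene Raf had 10, and aop, an ETS-domain repressor that the pathway switches off, had 10 in 2 chains. Aos, a secreted inhibitor of the receptor, had 3, from a chain whose 5 summits all lay inside CG33158. The aos gene itself lies within CG33158, and the coding TSS nearest to the strongest summit of the chain was that of aos, at 3087 bp. By position alone these summits cannot be assigned to either gene. The chain that holds the Krn summits also covered Ndfip and CG7484, so its summits cannot be assigned to Krn alone.

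Other signalling pathways had fewer members covered. In the Dpp pathway it was 3 of 23 (median length 7566 bp), with 12 summits in 2 chains at shn, a transcription factor gene, 5 at the receptor gene wit and 1 at Med, a co-Smad gene. The Med summit came from a chain whose 5 summits all lay inside CycG. One member was covered in each of 6 further lists. For Notch it was mam, 1 of 18 (20325 bp), for Wingless the receptor gene fz2, 1 of 22 (12459 bp), and for Hedgehog the receptor gene ptc, 1 of 15 (8234 bp). For JAK/STAT it was Socs36E, 1 of 11 (7364 bp), for JNK the Fos gene kay, 1 of 13 (9021 bp), and for insulin the kinase gene Sik3, 1 of 23 (7568 bp). The chains at ptc, Sik3 and wit were each dense again in 1 of the 3 replicates. So was the shn chain of 5 summits, while the shn chain of 7 was dense again in all 3. Members with a reproducible summit numbered 12 for Dpp, 11 for Notch, 14 for Wingless and 6 for Hedgehog. They numbered 6 for JAK/STAT, 8 for JNK and 11 for insulin.

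Among chromatin regulators, 2 of 21 Polycomb and trithorax genes (9160 bp) were covered, tara and osa, with 21 and 7 dense summits. Of 10 genes on the corepressor list (16153 bp) 2 were, Smr and tna, with 5 each. Membership is that of the list used, and a corepressor role of tna was not tested. The clock list had vri (1 of 12, 13315 bp), the adhesion list kirre (1 of 27, at a median length of 40368 bp) and the glycolysis list Pgk (1 of 13, 3590 bp). All 5 summits of the chain in kirre also lay inside CG32795, so they cannot be assigned to kirre alone. In all 15 of 26 lists had a covered member. One of the 26 held 7 genes picked from earlier results on these peaks, 2 of them covered, and gives no independent evidence.

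In 11 lists no member was covered, beside shares of 0.337% to 6.84% for all coding genes by length, and nothing is read from these zeros. They were 8 Hox genes (30563 bp), 33 disc patterning genes (15718 bp), 19 Hippo genes (16995 bp), 12 hypoxia genes (24115 bp) and 18 muscle genes (10230 bp), of which 3, 17, 13, 7 and 5 had at least 1 reproducible summit. The 13 HES genes (1013 bp), 10 proneural genes (1331 bp) and 15 heat shock genes (2231 bp) had 2, 1 and 5 with a summit. The 88 ribosomal protein, 179 chemosensory receptor and 122 cuticle protein genes are short too, with medians of 954.5 to 1691 bp.

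**Figure D5:**
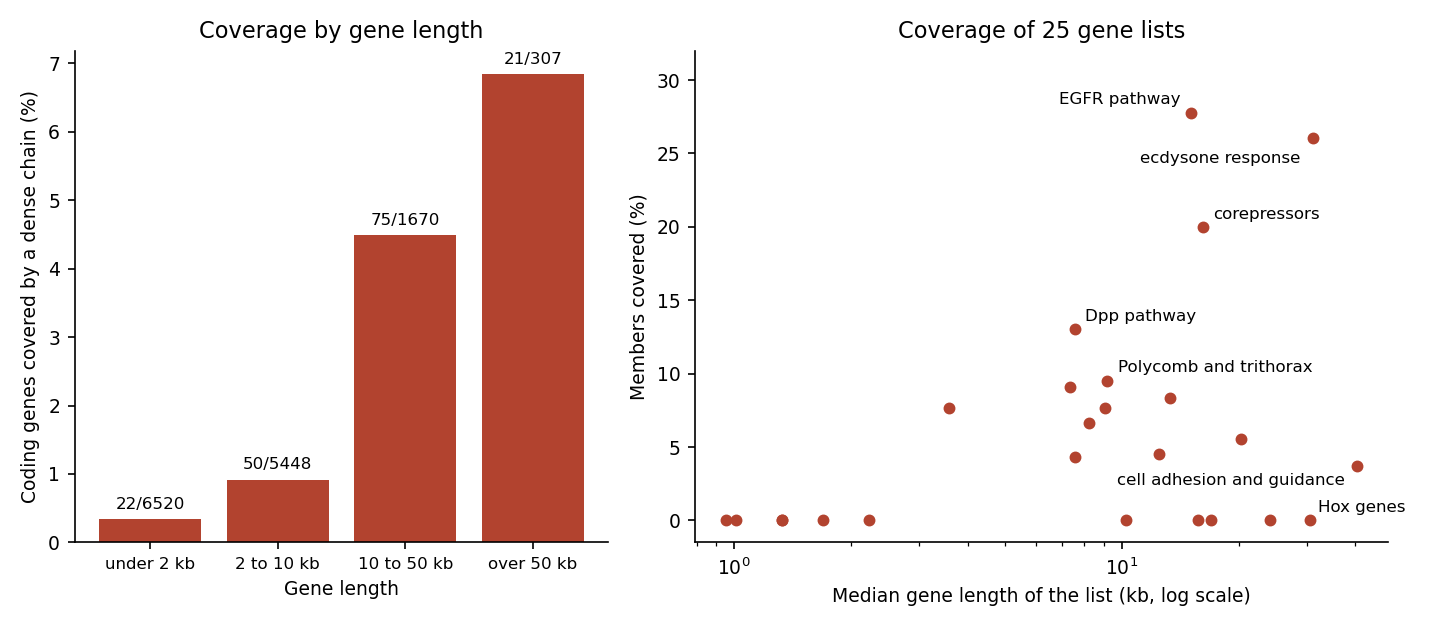
Left, percentage of coding genes covered by a dense chain in 4 classes of gene length, with covered and all genes above each bar. Right, percentage of members covered against median gene length (log scale) for 25 gene lists: EGFR and ecdysone genes stand highest at 27.8% and 26.1%, and 11 lists, long and short, stand at 0.

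The 16 chains that covered no coding gene were unevenly placed, with 11 of them on 3L. The 5 with the most summits were the 2 chains downstream of hry and 3 others in a single stretch. For those 3 the nearest coding TSS was that of hng3, at 3242 and 9810 bp, or of Sf3b3, at 8763 bp. This stretch of 3L from 616868 to 824622, 208 kb long, held 6 dense chains with 39 summits, and 5 of the 6 covered no coding gene. The stretch was singled out after its values were seen, and no other stretch of that length held more than 4.

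The emc gene, for a helix-loop-helix protein without a basic region that blocks DNA binding by its partners, lies inside the stretch, at 749400 to 753492, but was itself covered by no dense chain. The chains lay 5.24 to 126 kb from it. The nearest, of 7 summits from 758731 to 766088, reached a signal of 983 and had 7, 5 and 7 summits in replicates 1, 2 and 3. The farthest ended 18.4 kb before mir-ban, the bantam microRNA gene that promotes growth, and reached 1174. Of the 6 chains 3 were rebuilt in all 3 replicates and the others in 2.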

How the data were processed

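Anti-GFP ChIP-seq of 3 replicates was deposited as peak lists on dm6 and dm3. Per the notes deposited with the lists, each replicate list of 30000 peaks was derived from that replicate's alignments and a further file, and the reproducible list from the replicate lists and the pooled list. The signal value is a score given by the authors without a stated scale and was used only to rank or describe peaks within a list. The −log10 q-value deposited with each peak was not used for ranking. Summit offsets are the authors' too, and 6 summits that fell beyond their peak's end stayed in. For the aligner, the peak caller and the threshold of the reproducible list, nothing is given in the sources used here. Read depth is unknown, so no interval that needs it is given, and tests over chains cover counting error only.

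Summits were chained as described, in the reproducible list on dm6 and in each replicate's 10233 strongest peaks. A dense chain was rebuilt where a dense chain of the replicate overlapped its span, and a summit was found where it lay inside a replicate peak. Genes and TSSs came from Ensembl release 115 (13945 coding genes, 19607 coding TSSs on 6 arms), with 12 list symbols updated and 1 member, a microRNA gene, not matched. Location (3 classes) and motifs (11) were compared over chains with Fisher's exact test, two-sided, at an adjusted p of 0.05 (Benjamini-Hochberg), with the lower middle summit for chains of even size. Windows were read from the RefSeq assembly of the same build. Named genes were those covered by or nearest to the strongest summit of the 15 chains with the most summits (ties in favour of the longer span, which leaves 4 further chains of 8 summits out), up to 4 covered members per list with the most dense summits, hry, the densest chain, and the 5 largest chains without a coding gene. Those at COX7B and its neighbours, CrebB, Kdm2, Hr4, Kr-h1, aos, CG33158, CycG, CG32795, emc, SrpRbeta, hng3, Sf3b3, mir-ban and the genes of more than 1 chain were named after their values were seen. The members, lists and motifs were chosen with earlier results of these data known. Alternatives covered the gap, chain size, signal limit, build, list length, window, summit used and each replicate left out. Python 3.11.15, pandas 2.3.3 and scipy 1.17.1 were used.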

Additional observations from a re-analysis of the deposited data

How the results depend on the processing

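The number of dense chains depended on the rule: 14 with links up to 1000 bp, 295 with links up to 3000 bp, 334 with 4 or more summits, 75 with 6 or more, and 23 from peaks above the median signal value. Covered coding genes numbered 14 and 405 with links of 1000 and 3000 bp. In the full lists of 30000 peaks a replicate had a mean of 1594 dense chains, and 97.5% of dense summits were found there; 83.3% were found when a replicate summit had to lie within 100 bp. Without each replicate in turn the mean number of chains per replicate ran from 148.5 to 159 and the share of summits found from 87.5% to 89.1%.

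Location differences (dense less other chains, in percentage points) kept their direction but did not pass with 1000-bp links (promoter -11.0, intron 21.4, outside -16.0) or with peaks above the median signal (-18.2, 21.0 and -18.2). The first leaves 14 dense chains and the second 23. Counted by whether any summit of a chain lay in the class, an alternative chosen after seeing the data that grows with the number of summits, the promoter and outside differences reversed (23.6 and 6.14) and the intron one was 32.9. Leaving out a replicate moved the mean promoter difference between -18.3 and -17.9, the intron one between 17.3 and 19.7, and the outside one between -16.1 and -13.9.

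Of 110 motif comparisons under alternatives, 94 stayed on the same side of the threshold and 16 passed only there. These were, with all summits counted, DRE -2.19, Ohler 1 -1.23, GAGA 4.52, CA repeat 3.57 and ACACTG -3.08; with 200-bp windows DRE -4.48, GAGA 11.7 and CA repeat 11.3; with 3000-bp links class C 4.38, DRE -2.84, GAGA 5.69 and ACACTG -6.82; and with 4 or more summits class C 3.8, DRE -3.18, CA repeat 3.38 and ACACTG -5.25. Summits of a chain share a locus, so the test over all summits counts them as more independent than they are. ACACTG, lower in dense chains in each of these, was higher by 0.91 with the strongest summit of each chain. The cause of the other changes was not tested. No paired analysis was possible because the samples form 1 group.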
